A study of Mus musculus with 6 samples.

Results

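The 55 genes described here encode the core of the transforming growth factor beta (TGF-beta) and bone morphogenetic protein (BMP) system: ligands, latent-ligand binding proteins, receptors, secreted antagonists, SMAD proteins with their inhibitors, and the ID genes that BMP signals induce. They were chosen by symbol from a fixed list of names, and all 55 were found among the 54532 genes of the deposited count table. RNA was measured by bulk sequencing of polyadenylated transcripts in primary cultures from mouse aorta, labelled as mouse aortic endothelial cells (MAEC), with 3 female and 3 male libraries. All 6 libraries carry an Oct4 knockout (Oct4 KO) that the series describes as specific to endothelial cells, and none was treated. The cells grew in F-12 medium with serum, heparin and endothelial growth factors. The promoter that drives the deletion and the age of the mice are not given in the sources used here, and wild-type cells were not analysed here. The comparison available is therefore female against male among knockout cultures, in a study of sex differences and OCT4 in the endothelium. No label tells whether the libraries of one sex are separate animals, cultures or technical repeats, so each p-value reflects the spread among these 6 libraries and no more.

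Ligands of this family are secreted as dimers and bind pairs of type I and type II serine/threonine kinase receptors. TGF-beta and activin receptors act mainly through SMAD2 and SMAD3, and BMP receptors through SMAD1, SMAD5 and SMAD9, each in a complex with the shared partner SMAD4. In vascular endothelium the system is known for the receptor ACVRL1 with the co-receptor endoglin, and TGF-beta is known for driving smooth muscle and matrix genes.

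Total counts ran from 19299742 to 23064738 per library, so that 3 counts, the limit that a count of 0 allows, corresponded to 0.123 to 0.154 CPM (counts scaled to a library of 1e6 reads). Pou5f1, which encodes OCT4, had 0 counts in all 6 libraries, and without wild-type cells this does not check the genotype labels. Xist and 4 Y-linked genes followed the sex labels in all 6 libraries. The endothelial label was not borne out by its defining markers. Of 14 endothelial markers, 12 were under 1 CPM in every library, and 4 (Emcn, Cldn5, Robo4 and Sox17) were at 0 in all. The summed endothelial level was 55.5 to 69.9 CPM in the female cultures and 28.25 to 33.4 CPM in the male ones, nearly all of it Flt1. The 2 endothelial markers tested did not share a direction. Flt1 was higher in the female libraries and Pecam1 was lower (mean 0.72 CPM against 1.57 CPM). All 8 fibroblast markers were read at 10 CPM or more in every library, with sums of 16340 to 18110 CPM in female libraries against 7023 to 7623 CPM in male ones. Dcn alone had a mean of 6375 CPM against 442 CPM. Of the 8, 6 were higher in the female libraries, Col1a2 was lower (mean 1184 CPM against 1615 CPM) and Col1a1 overlapped between the sexes. Summed smooth muscle markers were 60.9 to 64.8 CPM against 154.5 to 167.8 CPM, most of it Smtn. Smtn, Acta2 and Lmod1 were lower in the female libraries, and Myh11, Cnn1 and Tagln were under 1 CPM in every library. Summed pericyte markers were 442 to 460.1 CPM against 720.2 to 760.8 CPM. The pericyte markers did not share a direction: Rgs5 and Pdgfrb were lower in the female libraries, and the other 4 of 6 (Cspg4, Kcnj8, Abcc9 and Notch3) were higher. Leukocyte markers were 69.6 to 86.0 CPM against 77.3 to 93.6 CPM with Ptprc and Adgre1 at 0, where Lyz2 was lower and Cd14 and Cd68 were higher in the female libraries. Summed mesothelial markers were 0.051 to 0.76 CPM against 2.39 to 2.82 CPM with Msln, Upk3b and Lrrn4 at 0. Some markers of each of these cell types thus differ between the sexes along with many of the genes described below, and their part in those differences was not tested.

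Promoter sequences are shown for 3 pairs of ligand genes because the pairs carry the main contrasts: Bmp4 and Gdf10 were read almost only in the male libraries, the activin subunit genes Inhba and Inhbb differed in opposite directions, and so did Tgfb1 and Tgfb2. Each is the 250 bases just before the annotated start, 5′ to 3′ on the strand of the gene, from RefSeq (GRCm38.p6), whose table held 39 of the 55 genes. Capitals mark TATAAA, the core of a classical promoter element.
Bmp4: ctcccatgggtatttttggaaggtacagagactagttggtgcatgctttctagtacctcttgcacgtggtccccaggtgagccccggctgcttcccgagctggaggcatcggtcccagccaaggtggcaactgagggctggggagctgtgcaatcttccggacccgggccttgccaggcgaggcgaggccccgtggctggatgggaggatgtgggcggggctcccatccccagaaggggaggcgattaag
Gdf10: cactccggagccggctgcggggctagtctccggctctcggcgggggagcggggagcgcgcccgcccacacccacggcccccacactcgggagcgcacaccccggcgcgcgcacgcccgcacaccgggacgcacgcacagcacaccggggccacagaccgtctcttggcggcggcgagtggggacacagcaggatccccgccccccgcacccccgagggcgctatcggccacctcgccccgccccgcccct
Inhba: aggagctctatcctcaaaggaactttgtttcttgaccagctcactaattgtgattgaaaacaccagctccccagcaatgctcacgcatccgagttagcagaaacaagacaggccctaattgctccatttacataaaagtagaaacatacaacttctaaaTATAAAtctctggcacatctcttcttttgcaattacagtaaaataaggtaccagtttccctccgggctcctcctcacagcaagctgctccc
Inhbb: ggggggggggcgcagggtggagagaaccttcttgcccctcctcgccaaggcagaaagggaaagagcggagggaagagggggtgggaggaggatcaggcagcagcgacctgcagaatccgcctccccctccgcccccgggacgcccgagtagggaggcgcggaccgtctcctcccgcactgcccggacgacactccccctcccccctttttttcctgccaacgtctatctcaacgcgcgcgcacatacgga
Tgfb1: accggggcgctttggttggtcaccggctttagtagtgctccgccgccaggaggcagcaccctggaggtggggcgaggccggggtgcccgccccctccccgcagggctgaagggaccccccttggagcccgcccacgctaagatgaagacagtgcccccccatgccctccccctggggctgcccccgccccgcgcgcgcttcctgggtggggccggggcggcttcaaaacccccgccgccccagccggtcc
Tgfb2: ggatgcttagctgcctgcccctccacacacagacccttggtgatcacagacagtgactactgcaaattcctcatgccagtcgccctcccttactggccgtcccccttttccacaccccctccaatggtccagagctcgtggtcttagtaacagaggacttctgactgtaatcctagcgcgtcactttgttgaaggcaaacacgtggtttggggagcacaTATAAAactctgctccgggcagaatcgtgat

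These windows lie at chr14:46390670-46390919 (minus strand) for Bmp4, chr14:33923337-33923586 (plus) for Gdf10, chr13:16011601-16011850 (plus) for Inhba, chr1:119422249-119422498 (minus) for Inhbb, chr7:25686752-25687001 (plus) for Tgfb1 and chr1:186705990-186706239 (minus) for Tgfb2. TATAAA, searched on both strands, began 91 bases before the start of Inhba and 31 bases before that of Tgfb2, and 12.4% of all 32851 windows of this length hold it. The other 4 windows do not hold these letters. The windows of Inhba and Tgfb2 had a G and C content of 43.2% and 53.6%, against 68.0% for Inhbb, 75.2% for Tgfb1, 63.2% for Bmp4 and 78.8% for Gdf10, and the median of all windows was 52.4%. Inhba and Tgfb2 were also the members of their pairs that were higher in the female than in the male libraries. This is a description of these windows and not a test. Among the other members the G and C content did not follow the direction in every window. The window of Bmpr1a, higher in the female libraries, had 78.8%, and that of Ltbp3, lower there, had 47.2%. TATAAA was in 5 of the 48 windows of members, those of Inhba and Tgfb2 included. The others were of Fstl3 and Gdf11, both lower in the female libraries, and of Bmpr1b, which was not called in the test below. GGCGCC, a site bound by SMAD1 and SMAD4 in BMP-responsive genes, was in none of the 6 windows, in 12 of the 48 windows of members (25.0%) and in 9.59% of all windows. These letters are all G and C, and the shares were not adjusted for the G and C content of the windows. The 48 windows belong to 39 genes, and overlapping windows of Ltbp4 that hold the site were counted separately. The palindromic SMAD box GTCTAGAC was in 0 of the 48 and in 0.167% of all. Both motifs read the same on either strand and neither overlaps TATAAA, and a match in these letters is not a measured binding site.

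Of the 55 genes, 49 had enough counts to be tested between the sexes. By edgeR's quasi-likelihood test over all 14814 genes tested, 15 members were higher and 18 lower in the female libraries at an adjusted p under 0.05, and 16 were not called. This call was made for 60.7% of all genes tested (30.9% higher and 29.8% lower), so the members' share of 67.3% is near the background. Changes of at least 2-fold among called genes numbered 8 higher and 7 lower members, beside 23.6% of all genes (13.7% higher and 9.88% lower). The library values of the sexes did not overlap for 35 tested members, and for 67.1% of all genes. The median log2 fold change (female over male) was -0.11 over the tested members and -0.01 over all genes, and the median size of the change was 0.63 and 0.53. A member read in a single sex passed the low-count filter only through that sex, so these counts give no support of their own. In bulk RNA, fewer cells of a type and less RNA per cell cannot be told apart.

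**Figure D1:**
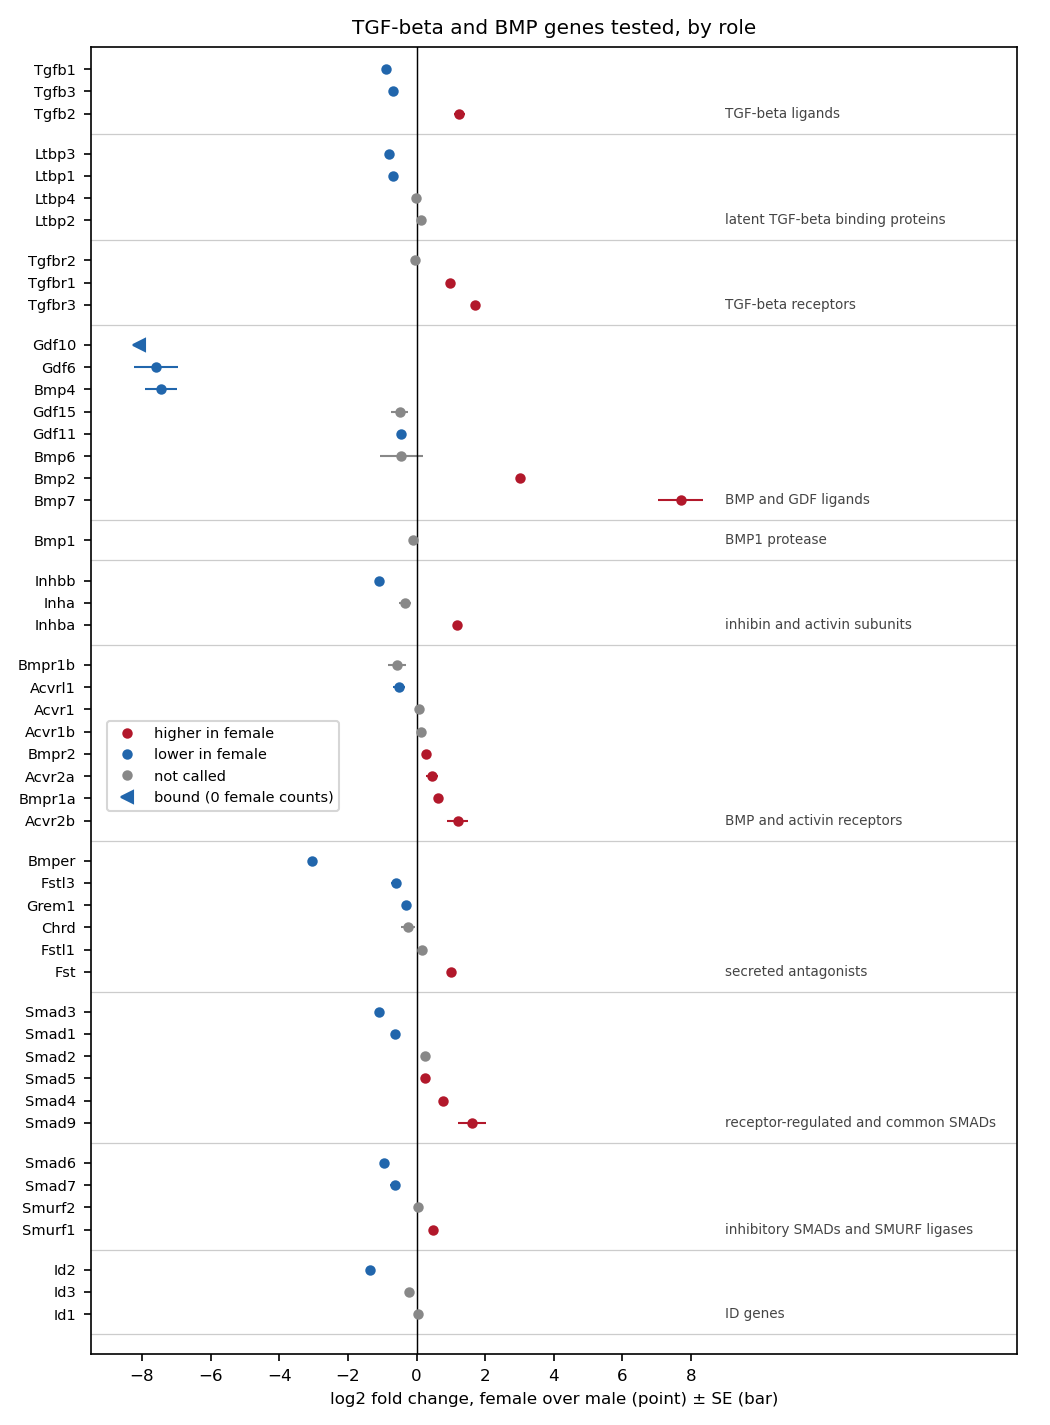
Log2 fold change, female over male (horizontal axis), of the 49 tested members by role, with points for the edgeR estimate, bars for ± SE and colours for the call. The BMP and GDF ligands reach farthest in both directions, from a bound for Gdf10, which had 0 female counts, to Bmp7.

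Among the 3 TGF-beta ligands, Tgfb2 was higher and Tgfb1 and Tgfb3 were lower in the female libraries. Tgfb1 (chr7:25687002-25705077, mm10), the most abundant of the 3 per length, was read at 216, 224 and 225.5 CPM in the female cultures and 396, 438 and 397 CPM in the male ones. Every male value lay above every female value, with a log2 fold change of -0.89 ± 0.08 (± SE here and below, adjusted p = 2.74e-08). Tgfb3 was read at 38.4 to 45.8 CPM in female libraries against 65.5 to 72.4 CPM in male ones (-0.68 ± 0.09, adjusted p = 7.61e-06), and it overlaps Ttll5 on the other strand. Tgfb2 (chr1:186622792-186705989) ran the other way at 17.3, 13.9 and 16.9 CPM in the female cultures and 5.79, 6.30 and 8.06 CPM in the male ones. Its groups did not overlap, and the log2 fold change was 1.25 ± 0.17 (adjusted p = 6.92e-06). Per length (CPM per kilobase of the deposited gene length), Tgfb1 made up 72.8% to 75.8% of the 3 ligands' summed level in female libraries against 78.8% to 79.4% in male ones. Tgfb2 made up 3.99% to 5.08% and 0.995% to 1.40%, so it was the least abundant in both sexes.

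Latent TGF-beta binding proteins hold the secreted ligand in the matrix. Ltbp3 (chr19:5740904-5758532), the most abundant of the 4 per length, was read at 796, 790 and 804 CPM in the female cultures and 1309, 1444 and 1381 CPM in the male ones. All male values were above the female ones (-0.79 ± 0.07, adjusted p = 7.46e-08). Ltbp1 was also lower in the female libraries, at 286 to 303 CPM against 442 to 498 CPM (-0.68 ± 0.08, adjusted p = 7.63e-07). Neither Ltbp2 (0.14 ± 0.07, adjusted p = 0.116) nor Ltbp4 (-0.01 ± 0.09, adjusted p = 0.91) was called.

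Of the TGF-beta receptors, the co-receptor and the type I receptor were higher in the female libraries and the type II receptor was not called. Tgfbr3 (chr5:107106570-107289629), which encodes betaglycan, a co-receptor that presents TGF-beta2 and inhibin, was read at 827, 775 and 721 CPM in the female libraries. The male libraries had 241, 223 and 253.5 CPM, far below any female value (1.69 ± 0.08, adjusted p = 1.71e-11). Tgfbr1, the type I kinase, was read at 365 to 434 CPM against 191 to 214 CPM (0.98 ± 0.08, adjusted p = 2.97e-08). Tgfbr2, the type II kinase, was read at 241 to 271 CPM against 261 to 271 CPM, with overlapping groups (-0.05 ± 0.08, adjusted p = 0.577). Tgfbr3 made up 54.7% to 57.7% of the 3 receptors' level per length in female libraries against 35.3% to 38.1% in male ones.

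**Figure D2:**
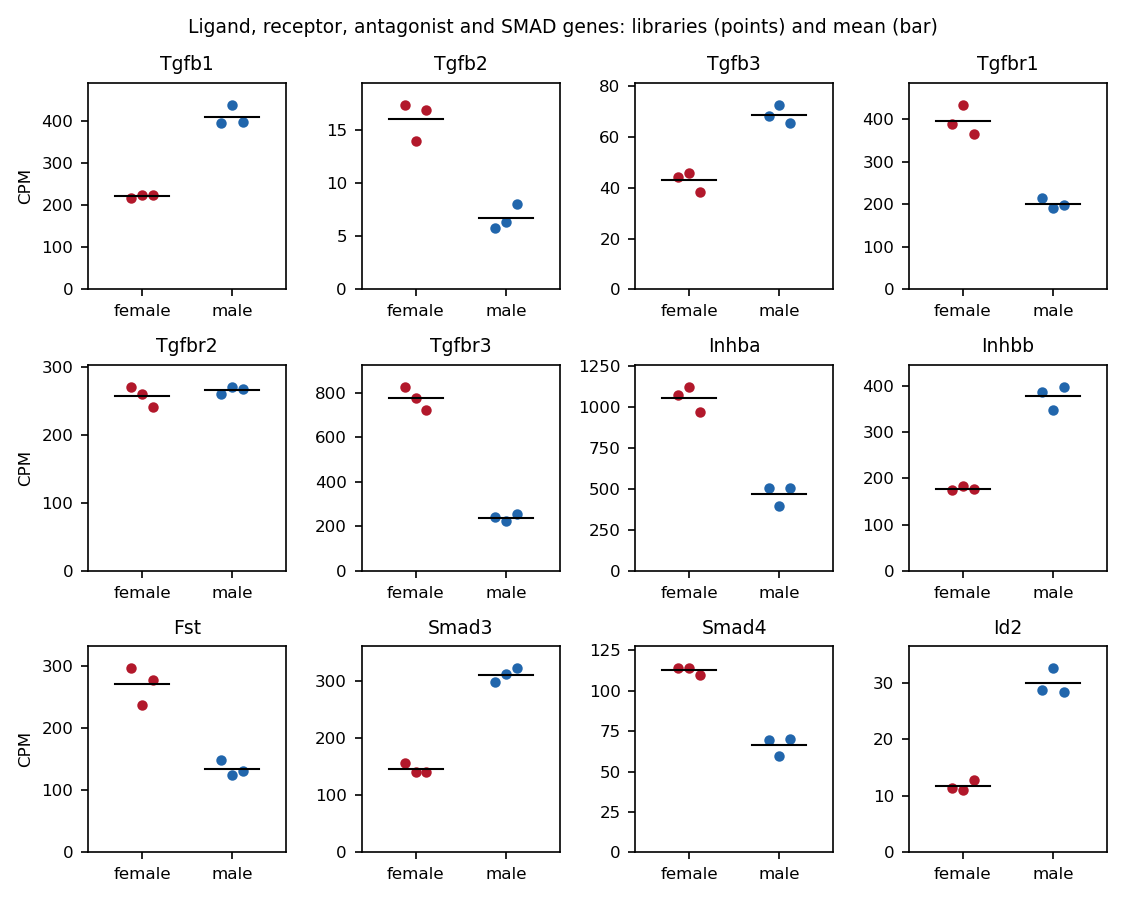
CPM (vertical axes, each from 0) of 12 members in the 3 female (red) and 3 male (blue) libraries, with bars at the means. The groups overlap for Tgfbr2 alone among these 12, and Tgfb1 and Tgfb2, like Inhba and Inhbb, lie in opposite order.

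BMP and GDF ligand genes showed the widest differences among the members. Of 11 such genes, 8 were tested, of which Bmp2 and Bmp7 were higher and Bmp4, Gdf6, Gdf10 and Gdf11 lower in the female libraries. Bmp2 (chr2:133552159-133562885), a ligand of the type I receptors BMPR1A and BMPR1B, was read at 232, 264.5 and 240 CPM in the female cultures and 33.05, 26.2 and 32.2 CPM in the male ones. The lowest female value was several times the highest male value (3.01 ± 0.10, adjusted p = 1.22e-13). Gdf10 (chr14:33923587-33937983), also called BMP3B, had 0 counts in all 3 female libraries and 897, 763 and 1030 counts in the male ones. The male counts correspond to 42.5, 38.5 and 42.4 CPM. Against the limit of 3 counts per library the gene was at least 274-fold lower in the female libraries (adjusted p = 1.72e-13). Bmp4 (chr14:46383520-46390669), a close relative of Bmp2 in sequence and receptor use, had 4, 0 and 0 counts in female libraries against 219, 322 and 274 counts in male ones. Its male to female ratio was 187, with a 95% counting interval of 72.9 to 689 (adjusted p = 6.72e-10). All 4 female counts came from female library 1, and without it the gene was at least 82.65-fold lower in the female libraries.

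Bmp7 and Gdf6, named after their values were seen, were also read almost entirely in one sex. Bmp7 had 82, 108 and 74 counts in the female cultures and 0, 0 and 1 in the male ones (ratio 287, 95% counting interval 51.1 to 11390, adjusted p = 2.48e-08). Gdf6 had 1, 0 and 0 counts in female libraries against 88, 73 and 125 in male ones (ratio 263, interval 46.8 to 10420, adjusted p = 2.58e-08). Their single counts came from male library 3 for Bmp7 and female library 1 for Gdf6. Without that library the difference was at least 30.1-fold for Bmp7 and at least 28.3-fold for Gdf6. Each stayed at a few CPM in the sex where it was read. Gdf11 differed less, at 19.8 to 21.5 CPM in the female cultures and 24.9 to 31.5 CPM in the male ones (-0.46 ± 0.12, adjusted p = 0.00329). Gdf15, a stress-induced cytokine, was not called (-0.49 ± 0.24, adjusted p = 0.0884), nor was Bmp6 (-0.44 ± 0.63, adjusted p = 0.562), a gene with 124 counts in all that overlaps the more highly read Txndc5 on the other strand. Bmp3 had 6 female counts and no male ones, Gdf5 had 6 and 15, and Bmp5 had none in any library. By level per length, Bmp2 made up 88.5% to 89.0% of the BMP and GDF ligand sum in the female libraries. In the male libraries Bmp2 made up 21.9% to 28.0%, Gdf10 21.9% to 24.6%, Gdf11 18.2% to 22.3% and Bmp4 13.9% to 21.5%, so the mix there was spread over 4 genes.

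**Figure D3:**
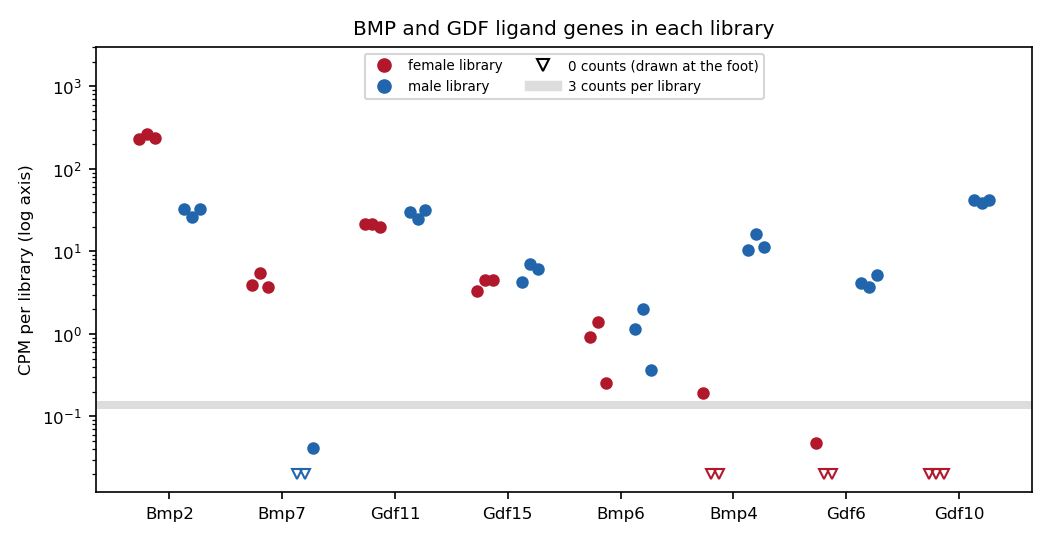
CPM on a log axis of the 8 tested BMP and GDF ligand genes in each female (red) and male (blue) library, with open triangles at the foot for libraries with 0 counts and a grey band for the CPM of 3 counts. Bmp2 and Bmp7 lie higher in the female libraries, and Bmp4, Gdf6 and Gdf10 lie at or near the band or the foot there.

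Bmp1, despite its name a metalloprotease that cleaves procollagen and the BMP antagonist chordin, was read at 512, 478 and 522 CPM in female libraries against 527, 584 and 518 CPM in male ones. The groups overlapped and the gene was not called (-0.11 ± 0.08, adjusted p = 0.241).

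The activin subunit genes differed in opposite directions. Inhba (chr13:16011851-16031621), whose product forms activin A, was read at 1073, 1122 and 965 CPM in the female cultures and 503, 396 and 506 CPM in the male ones. No value overlapped between the sexes (1.17 ± 0.10, adjusted p = 1.81e-08). Inhbb (chr1:119415465-119422248), whose product forms activin B, was read at 174, 183 and 177 CPM in female libraries against 386, 348.5 and 398 CPM in male ones. Here each male library was above each female library (-1.09 ± 0.08, adjusted p = 3.00e-09). Inha, the inhibin alpha subunit, was not called (-0.34 ± 0.17, adjusted p = 0.0922). Inhba made up 75.3% to 78.4% of the 3 subunits' level per length in the female cultures and 40.8% to 43.8% in the male ones, where Inhbb led with 50.5% to 53.9%.

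Of 8 BMP and activin receptor genes, 4 were higher and 1 lower in the female libraries. The share called, 62.5%, is near the 60.7% of all genes tested. Bmpr1a (chr14:34410734-34503341), a type I receptor for BMP2 and BMP4 and the most abundant of the 8 per length, was read at 175, 194 and 162 CPM in female libraries against 117, 105 and 120.5 CPM in male ones. The groups were separate (0.63 ± 0.09, adjusted p = 9.17e-06). Acvr2b, a type II activin receptor, was higher at 3.33 to 3.79 CPM against 1.36 to 1.66 CPM (1.20 ± 0.30, adjusted p = 0.00253). Bmpr2, the main BMP type II receptor, and Acvr2a, another type II receptor, were called with overlapping library values. Bmpr2 had a log2 fold change of 0.28 ± 0.10 (adjusted p = 0.0199), and Acvr2a 0.45 ± 0.17 (adjusted p = 0.0304). Leaving out female replicate 1 or 2 or male replicate 2 ended the call for Bmpr2 (adjusted p = 0.0608 to 0.098), and leaving out any of those or male replicate 1 ended it for Acvr2a (0.0662 to 0.139). Acvrl1, the endothelial type I receptor, was lower in the female libraries, at 7.89 to 12.2 CPM against 14.0 to 16.3 CPM (-0.52 ± 0.17, adjusted p = 0.0138), a call that ended without female replicate 2 (adjusted p = 0.0674). With offsets for gene length and G and C content, 2 of the 4 higher calls did not hold: Bmpr2 was lower in the female libraries (-0.42, adjusted p = 4.52e-05) and Acvr2a was 0.08 (adjusted p = 0.69). Bmpr1a kept its call with these offsets at a smaller value of 0.25. As fitted, Acvr1, Acvr1b and Bmpr1b were not called, with log2 fold changes of 0.08, 0.13 and -0.57.

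Secreted antagonists bind ligands outside the cell. Grem1 (chr2:113746164-113758646), the BMP antagonist gremlin and the most abundant of all 55 genes per length, was read at 1888, 2488 and 1937 CPM in the female cultures and 2781, 2314 and 2676 CPM in the male ones. The second female library lay within the male range, and the call (-0.30 ± 0.10, adjusted p = 0.0177) ended without female replicate 1 or 3 or male replicate 1 (adjusted p = 0.109, 0.0733 and 0.0835). Bmper (chr9:23223076-23485200), a BMP-binding endothelial regulator, was read at 9.23, 10.2 and 7.35 CPM in female libraries against 72.0, 70.2 and 77.0 CPM in male ones. This was the largest difference among the antagonists tested, with no overlap (-3.03 ± 0.12, adjusted p = 1.15e-12). Fst (chr13:114452290-114458951), the activin antagonist follistatin, was read at 296, 238 and 277 CPM in the female cultures and 148, 124 and 130.3 CPM in the male ones. Its groups did not overlap (1.01 ± 0.09, adjusted p = 8.17e-08), and its direction was that of Inhba. Fstl3, a follistatin relative, was lower (-0.60 ± 0.14, adjusted p = 0.00115), a call that ended with the length and G and C offsets (-0.29, adjusted p = 0.0831). Fstl1 (0.15 ± 0.08, adjusted p = 0.136) and Chrd, which encodes chordin (-0.26 ± 0.20, adjusted p = 0.277), were not called. The noggin gene Nog had 0 counts in all libraries, and Chrdl1 had 8, 1 and 6 counts in female libraries against none in male ones, too few to be tested. Grem1 made up 65.0% to 74.9% of the 8 antagonists' level per length in the female cultures and 74.7% to 77.5% in the male ones.

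**Figure D4:**
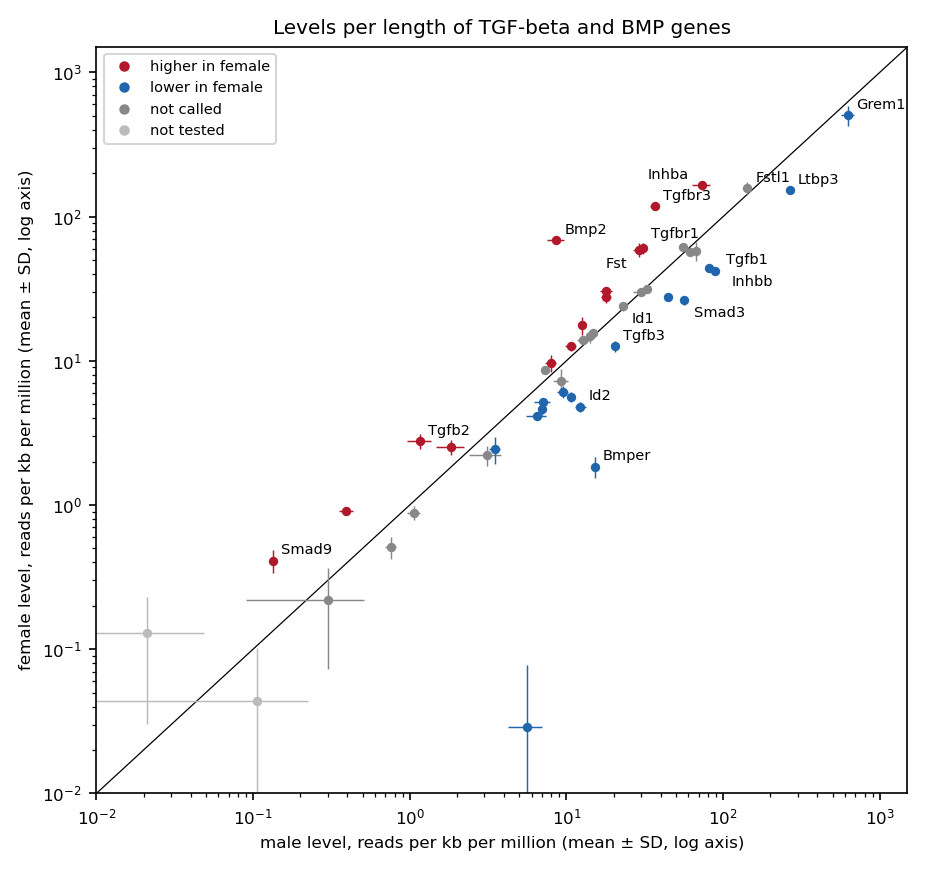
Mean level per length, in CPM per kilobase, of 48 members in the male (horizontal) and female (vertical) libraries, with bars for ± SD (n = 3 each), log axes and a line at equal levels. The 7 members not drawn had a mean of 0 or less than the lower limit of an axis in at least 1 sex, and Grem1 is at the upper end in both sexes.

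Among the signal-carrying SMAD genes, Smad3 and Smad1 were lower and Smad4, Smad5 and Smad9 higher in the female libraries. Smad3 (chr9:63646767-63757994), which carries TGF-beta and activin signals, was read at 156, 140 and 139.8 CPM in female libraries against 298, 312 and 322 CPM in male ones. Its groups were far apart (-1.10 ± 0.08, adjusted p = 2.87e-09). Smad2, its close relative, was not called (0.24 ± 0.10, adjusted p = 0.0572). Smad4, the shared partner, was read at 110 to 114 CPM against 59.9 to 70.0 CPM (0.76 ± 0.08, adjusted p = 7.42e-07). Of the BMP-linked SMADs, Smad1 was lower (-0.63 ± 0.10, adjusted p = 3.41e-05) and Smad9 higher (1.61 ± 0.41, adjusted p = 0.00276), the latter at only 0.706 to 2.66 CPM. Smad5 was 0.25 ± 0.09 (adjusted p = 0.0242), and the call ended in 4 of the 6 fits that leave out a library (adjusted p = 0.0607 to 0.114). Smad3 made up 30.0% to 32.7% of the 6 genes' level per length in the female cultures and 53.6% to 57.1% in the male ones, and Smad4 35.6% to 36.4% and 16.4% to 18.6%.

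Both inhibitory SMAD genes were lower in the female libraries. Smad6, which restrains BMP receptors, was read at 17.1 to 19.6 CPM against 33.2 to 36.3 CPM (-0.94 ± 0.11, adjusted p = 1.77e-06). Smad7, which restrains TGF-beta and BMP receptors, was read at 18.4 to 19.4 CPM against 24.8 to 33.7 CPM (-0.63 ± 0.13, adjusted p = 0.000364). Smurf1 (chr5:144876495-144965847), a ubiquitin ligase for SMADs and receptors and the most abundant of these 4 per length, was read at 106, 129 and 99.5 CPM in female libraries against 80.1, 77.3 and 81.5 CPM in male ones. It was higher in the female libraries (0.49 ± 0.09, adjusted p = 0.000286), while the related ligase Smurf2 was not called (0.05 ± 0.09, adjusted p = 0.613).

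The ID genes encode inhibitors of basic helix-loop-helix factors and are classical BMP targets. Id2 (chr12:25093799-25097140) was read at 11.4, 11.1 and 12.8 CPM in the female cultures and 28.8, 32.6 and 28.3 CPM in the male ones. The groups did not overlap (-1.35 ± 0.13, adjusted p = 9.12e-08). Id3 (chr4:136143497-136145755), the most abundant of the 4 per length, was read at 109, 86.1 and 115 CPM in female libraries against 127, 118 and 118.2 CPM in male ones. Although these values did not overlap, the gene was not called (-0.23 ± 0.10, adjusted p = 0.0559). Id1 was not called at 26.2 to 30.1 CPM against 25.4 to 28.3 CPM (0.05 ± 0.11, adjusted p = 0.718). Id4, with 30 female and 5 male counts, was not tested. The 3 tested ID genes did not share a call.

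Gene length moved with the comparison across the whole table. With tested genes of at least 5 CPM on average sorted by length into 5 groups of near equal size, the shortest group (median length 1745 bases) had a median log2 fold change of -0.40 and the longest (10124 bases) one of 0.39. With offsets for length and G and C content in each library, 6 of the 49 tested members changed sign. They were Bmpr2, the longest member, Smad5 (from 0.25 to -0.12, adjusted p = 0.141) and 4 members not called as fitted (Ltbp2, Inha, Smurf2 and Id3). Id1, the shortest member, became 0.52 (adjusted p = 0.000505). Tgfbr1, Inhba and Bmpr1a kept their calls at smaller values of 0.57, 0.79 and 0.25. Bmp2, Bmper, Smad3 and Id2 moved little, to 3.13, -3.07, -1.17 and -1.22.

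**Figure D5:**
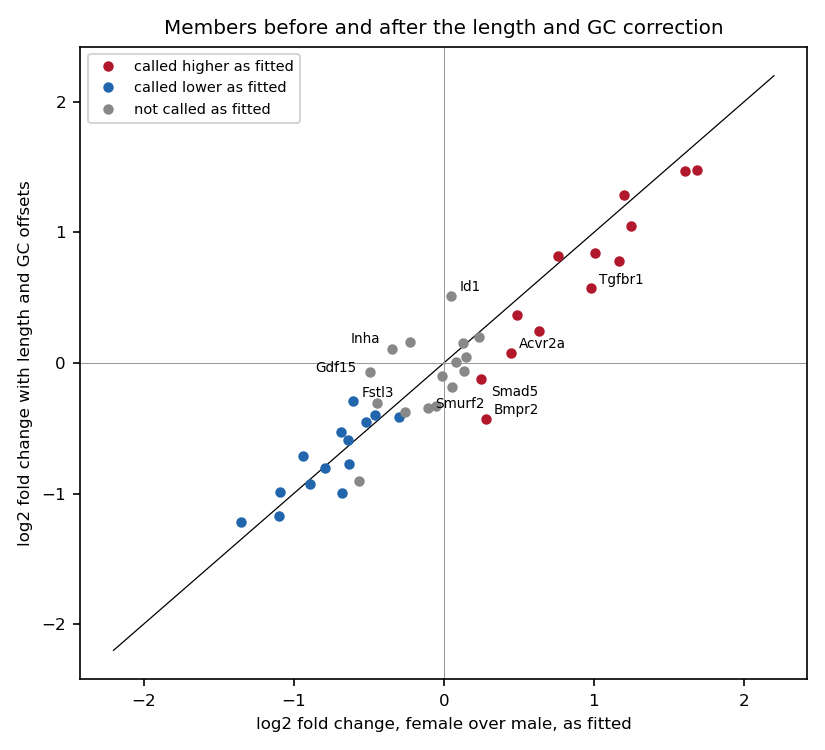
Log2 fold change, female over male, of 43 members as fitted (horizontal) and with length and G and C offsets (vertical), with a line at equality and colours for the call as fitted. The other 6 tested members lie beyond the plotted range, and 6 drawn members (Bmpr2, Smad5, Smurf2, Ltbp2, Inha and Id3) change sign. Id1 lies above the line.

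Libraries of a sex were close to each other for most members. Over the 40 members with a mean of at least 5 CPM in both sexes, the coefficient of variation across the 3 libraries had a median of 7.64% in the female cultures and 6.74% in the male ones. The widest were Acvrl1 at 21.6% for the female set and Acvr2a at 20.5% for the male set. Besides Tgfb3 and Bmp6, another 6 members (Ltbp2, Ltbp3, Inhba, Bmpr1a, Acvr2a and Chrd) overlap a gene on the opposite strand that had at least 100 counts, and with the strand setting unknown such reads cannot be assigned with certainty.

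The wider pathway was read through 88 other genes, of which 58 were tested, 26 were higher, 19 lower and 13 not called in the female libraries, with a median log2 fold change of 0.29. Their share called, 77.6%, stands beside 60.7% of all genes tested. The list was chosen with earlier results of these data known, and the difference between these shares was not tested. With the length and G and C offsets 21 were higher and 21 lower. Of the co-receptors, Eng, which encodes endoglin, the partner of ACVRL1, was read at 87.1, 102.5 and 87.0 CPM in the female cultures and 226, 288 and 245 CPM in the male ones. It was lower in the female libraries (-1.46 ± 0.10, adjusted p = 1.50e-09), in the direction of Acvrl1, and it overlaps Fpgs on the other strand. Bambi, a decoy receptor, was higher (0.91 ± 0.18, adjusted p = 0.00036). Of 9 other antagonists tested, 6 were higher and 1 lower. Htra1, a secreted protease that opposes TGF-beta family signals, was among those higher (1.81 ± 0.10, adjusted p = 1.14e-10). Of the 2 other ligands tested, Lefty1 was lower (-1.56 ± 0.15, adjusted p = 1.24e-07) and Gdf9 was not called.

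Genes for ligand processing and release were split, with 3 higher, 3 lower and 3 not called. The share called was 66.7%, near the 60.7% of all genes tested. Pcsk6, a proprotein convertase, had 0, 0 and 1 counts in the female cultures and 1356, 1375 and 1924 in the male ones (ratio 4278, 95% counting interval 768 to 169000, adjusted p = 3.02e-15), and at least 475-fold lower in the female libraries without female library 3. Tll1, a relative of Bmp1, was read at 2.36 to 3.40 CPM against 75.3 to 106 CPM (-4.96 ± 0.16, adjusted p = 6.71e-14). Among 16 intracellular regulators 9 were higher and 5 lower, a share called of 87.5%. Pmepa1, a TGF-beta induced inhibitor of SMAD signalling, was lower (-1.79 ± 0.09, adjusted p = 2.56e-11), and Trim33, a SMAD4-binding protein, was higher (0.94 ± 0.09, adjusted p = 2.18e-07).

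The listed TGF-beta induced genes did not move as a block. Of 13 tested, 4 were higher, 5 lower and 4 not called in the female libraries. The share called, 69.2%, is near the 60.7% of all genes tested (30.9% higher and 29.8% lower). Ccn2, a matricellular protein, was read at 5.36, 4.82 and 9.22 CPM in female libraries against 320, 319 and 319.8 CPM in male ones. This was the largest difference among them (-5.63 ± 0.16, adjusted p = 2.00e-14). Of the BMP induced genes outside the ID family, 5 were tested, 2 were higher and 3 lower. Atoh8 (-2.65 ± 0.19, adjusted p = 2.66e-09) and Msx1 (-3.81 ± 0.37, adjusted p = 1.32e-07) were among those lower in the female libraries.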

How the data were processed

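The deposited table holds raw read counts per gene, not normalised by the authors. Alignment to mm10 used HISAT2 2.0.5 and counting used featureCounts 1.5, per the submitters' processing notes, and the strand and multi-mapping settings are not given in the sources used here. No sample columns beyond the 6 libraries and no rows without a gene name were present. Testing used edgeR 4.0.16 under R 4.3.3 (low counts removed by filterByExpr, TMM, glmQLFit, glmQLFTest, sex as the only term, two-sided, Benjamini-Hochberg over all genes). The SE is the size of the log2 fold change over the root of F. CPM uses effective library sizes. Counting intervals are exact at 95% and, like the 3-count limit, cover counting error only. The script was tested on simulated data. Values per library are given for called members with a log2 change of at least 1 and a mean of at least 5 CPM in the higher sex, the most abundant member per length of each role, and members at 0 in 1 sex with at least 1 CPM in the other. Of the other pathway lists, up to 2 genes with the smallest adjusted p and Eng are named, except single values that are not reported here. Bmp7, Gdf6 and the other single values given outside this rule were chosen after being seen. Members and lists were chosen with earlier results of these data known. Alternatives were DESeq2 1.42.0, limma-voom (limma 3.58.1), other scalings and filters, offsets, a replicate block and leaving out each library.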

Additional observations from a re-analysis of the deposited data

How the results depend on the processing

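Of the 33 called members, 27 (12 higher and 15 lower) kept direction and call in all 15 alternatives, and 7 of the 16 members not called stayed so. Counts of called members were 12 to 16 higher and 17 to 23 lower. With scaling by total counts only, the median of all genes moved from -0.01 to -0.13, and 12 members were higher and 23 lower. The length and G and C offsets changed the sign of Bmpr2 (-0.425), Smad5 (-0.125), Smurf2 (-0.181), Ltbp2 (-0.0585), Inha (0.109) and Id3 (0.159), and with the replicate block added, of the same 6 (Bmpr2 -0.425, Smad5 -0.123, Smurf2 -0.183, Ltbp2 -0.0597, Inha 0.106 and Id3 0.157). Without the block, the offsets ended the calls of Fstl3 (adjusted p = 0.0831), Acvr2a and Smad5. They called Tgfbr2 (-0.328), Bmp1 (-0.342), Bmpr1b (-0.905), Id1 (0.517) and Smurf2 (-0.181, adjusted p = 0.0429). Either scaling by total counts or by upper quartile ended the calls of Bmpr2, Acvr2a and Smad5, and called Inha, Bmpr1b and Id3, and total counts also called Gdf15 and Bmp1. The cause of these changes was not tested beyond the fits themselves.

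Same-numbered female and male libraries did not deviate together (r = -0.029, -0.117 and -0.168 across 10812 genes), beside -0.0714 to 0.19 for libraries with different numbers. Deviations from the mean of 3 libraries cannot decide whether equal numbers mark a shared batch, and the labels do not say. With a replicate block, 14 members were higher and 18 lower, and the call that ended was Smad5 (adjusted p = 0.0542). Leaving out one library at a time gave 12 to 15 higher and 17 to 18 lower members, and 25 to 26 higher and 19 to 21 lower other pathway genes. Depth limits what can be said of the 6 members that were not tested, which were under 1 CPM in every library.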
